A study of Homo sapiens with 12 samples.

Results

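The histone genes of the replication-dependent clusters were followed in multiple myeloma cells, malignant plasma cells grown as lines. All entries of the count table with a clustered histone symbol were taken, and 76 of 43735 entries were members. Of these, 56 lie in the HIST1 cluster on chromosome 6, 16 in HIST2 and 3 in HIST3 on chromosome 1, and 1 is HIST4H4 on chromosome 12. They comprise 6 linker histone H1 genes, 18 H2A, 21 H2B, 16 H3 and 15 H4 genes, among them 5 annotated pseudogenes.

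RNA was sequenced from the glucocorticoid-sensitive line MM1S and the glucocorticoid-resistant line MM1R, which come from the same patient. Each line was left untreated (UT) or treated with 1 µM withaferin A (WA), a plant-derived steroidal lactone that binds cysteines, for 3 h, and each of the 4 groups held 3 libraries. A library is named here by its cell passage, which was 4, 6 or 7 for MM1R and 16, 22 or 23 for MM1S, and the same passages were untreated and treated. Each arm is thus a single line, and whether the untreated cells received the solvent is not stated in the labels. Total counts were 17625110 to 19368343 reads per library.

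Histone proteins package DNA. H2A, H2B, H3 and H4 form the core of the nucleosome, and H1 binds the linker DNA between nucleosomes. The clustered genes are mostly transcribed in S phase, when new DNA needs new histones, and their mRNAs classically end in a short stem-loop bound by SLBP instead of a poly(A) tail. Some of these genes also give longer polyadenylated transcripts, chiefly in cells that leave the cycle. Replacement histones, such as H3.3, are made throughout the cycle from separate genes with ordinary poly(A) tails. How RNA was selected for these libraries is not given in the sources used here, and fewer reads of a gene therefore cannot be told apart from fewer of its transcripts with a captured end.

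Stem-loops are shown because they define the class of mRNA annotated for these genes. Which transcript ends gave the counted reads was not determined. A loop with a stem of 6 base pairs and 4 loop bases was found in a GENCODE transcript (GRCh37) of 69 members, with the stem in capitals below. The first form was the most common, with 40 members, and the second, with 9 members, was held by H4 genes alone. The form printed last was found in 9 members, among them HIST1H2BD, HIST1H2BJ and HIST1H2BK.
HIST1H1C and HIST1H2AC: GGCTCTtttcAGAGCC
HIST1H4C: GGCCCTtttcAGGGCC
HIST1H2BJ: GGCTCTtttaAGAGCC

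In 48 of the members all annotated transcripts ended just past the loop. A further 21 had at least 1 annotated transcript that ran 100 bases or more past the loop or lacked it. In the remaining members no loop was found (3 pseudogenes) or no transcript was matched (4).

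Promoters are shown for the 4 genes that were called with WA in MM1R, from 250 bases before the RefSeq start to 50 after it, on GRCh38.p14. Capitals mark the TATA box letters TATAAA, the letters CCAAT and the octamer ATGCAAAT, which is bound by POU2F1 in H2B promoters, on either strand. Where TTTATA and TATAAA overlap, the whole run is in capitals.
HIST1H1C (chr6:26056421-26056720, minus strand): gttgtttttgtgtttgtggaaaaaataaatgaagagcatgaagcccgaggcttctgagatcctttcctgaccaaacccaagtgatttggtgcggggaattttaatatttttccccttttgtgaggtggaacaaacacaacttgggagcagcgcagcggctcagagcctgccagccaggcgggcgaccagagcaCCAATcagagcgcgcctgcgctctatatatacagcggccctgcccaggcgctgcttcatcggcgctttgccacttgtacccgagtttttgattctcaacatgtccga
HIST1H2AC (chr6:26123922-26124221, plus strand): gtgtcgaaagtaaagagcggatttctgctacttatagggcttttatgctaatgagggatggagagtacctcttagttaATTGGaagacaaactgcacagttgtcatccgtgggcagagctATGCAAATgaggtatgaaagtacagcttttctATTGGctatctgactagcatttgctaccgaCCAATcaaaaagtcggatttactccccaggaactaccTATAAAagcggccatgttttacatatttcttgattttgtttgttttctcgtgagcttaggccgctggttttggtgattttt
HIST1H2BD (chr6:26157871-26158170, plus strand): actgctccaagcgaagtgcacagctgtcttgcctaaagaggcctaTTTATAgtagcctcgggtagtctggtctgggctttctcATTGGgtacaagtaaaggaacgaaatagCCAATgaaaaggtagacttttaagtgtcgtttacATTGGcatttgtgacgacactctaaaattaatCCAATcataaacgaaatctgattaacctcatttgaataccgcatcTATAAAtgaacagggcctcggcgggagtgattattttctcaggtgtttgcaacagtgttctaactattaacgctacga
HIST1H2BJ (chr6:27132746-27133045, minus strand): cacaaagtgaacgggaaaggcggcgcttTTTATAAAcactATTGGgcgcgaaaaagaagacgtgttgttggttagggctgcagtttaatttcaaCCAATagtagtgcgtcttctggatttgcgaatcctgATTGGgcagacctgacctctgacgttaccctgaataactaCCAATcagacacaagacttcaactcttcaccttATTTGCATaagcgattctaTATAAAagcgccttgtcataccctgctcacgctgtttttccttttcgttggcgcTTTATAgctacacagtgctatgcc

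CCAAT was present in all 4 promoters. TATAAA was present in those of HIST1H2AC, HIST1H2BD and HIST1H2BJ, and the octamer in those of HIST1H2AC and HIST1H2BJ. Among the 66 members with a promoter sequence, TATAAA was in 66.7%, CCAAT in 84.8% and the octamer in 39.4%, against 12%, 35.7% and 1.80% of all 27305 promoters. The octamer was found in 14 of 18 H2B and 11 of 16 H2A promoters, in 1 of 13 H3 promoters and in none of the 6 H1 or 13 H4 promoters. CCAAT was in 3 of 13 H4 promoters and in every other member's promoter.

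Clustered histone genes gave few reads. Their sum was 327 to 538 reads per library in untreated MM1R and 483 to 568 in untreated MM1S. With WA it was 838 to 2083 in MM1R and 836 to 1242 in MM1S, and treated and untreated libraries did not overlap in either line. Summed CPM (counts per 1000000 reads, scaled with TMM factors) was 22.8 ± 4.64 (SD, n = 3) in untreated and 81.5 ± 32.2 in treated MM1R, a ratio of 3.57. In MM1S it was 26.9 ± 2.72 and 56.5 ± 11.4, a ratio of 2.10. These sums are descriptions, with no test.

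HIST1H1C alone gave 30.4% to 56.0% of the members' reads in a library. HIST1H1C, HIST1H2AC and HIST1H2BK, a trio chosen after their values were seen, together gave 47.6% in the treated MM1R library of passage 7 and 53.8% to 82.3% in the other 11. The other 73 members summed to 151 to 187 reads in the 6 untreated libraries, 234 to 368 in 5 treated ones and 743 in treated MM1R of passage 7.

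**Figure D1:**
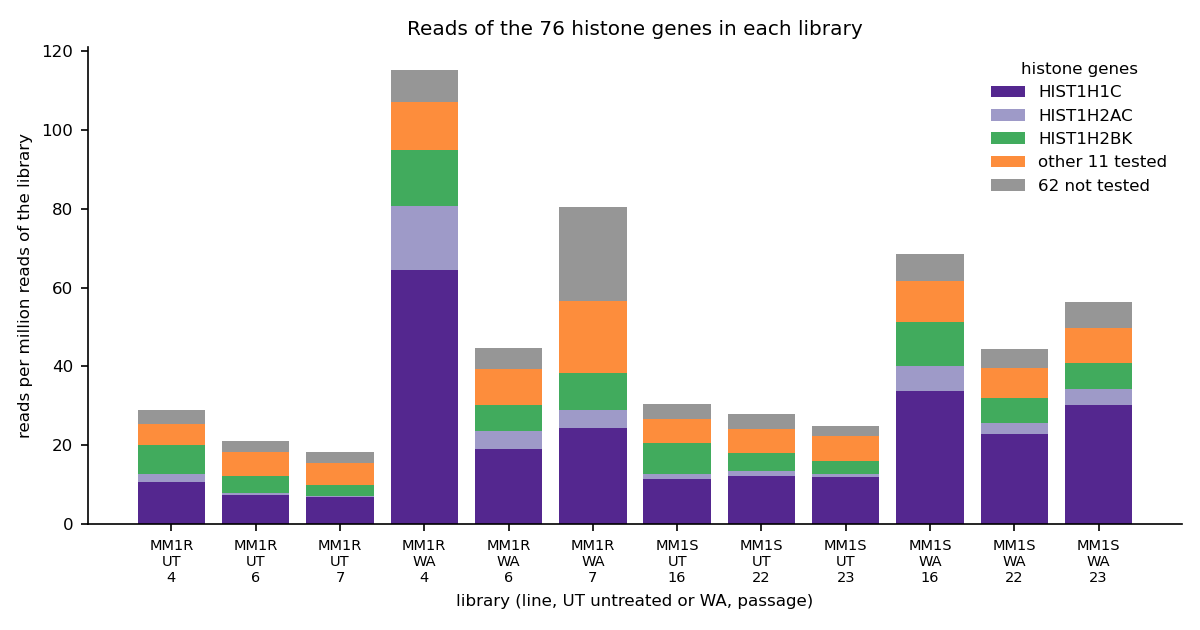
Stacked bars give the reads of the 76 histone genes in CPM without TMM factors (y axis) in each of the 12 libraries (x axis), split into HIST1H1C, HIST1H2AC, HIST1H2BK, the other 11 genes tested and the 62 not tested. Treated libraries are higher than untreated ones in both lines, and the treated MM1R library of passage 7 has the largest part from genes not tested (423 reads).

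Per kilobase of exon, HIST1H1C was the highest member in untreated cells at 13.5 CPM per kb, followed by HIST1H2BK at 9.85, HIST2H2AC at 2.40, HIST1H2BH at 2.18, HIST1H2AM at 0.948 and HIST1H2BD at 0.833. Some replacement histone genes were far higher per kilobase on the same scale: H1FX reached 284, H3F3A 248, H2AFZ 211 and H2AFX 96.2 CPM per kb. Others were not. CENPA was at 13.6, near HIST1H1C, and H2AFJ (1.96), H3F3C (0.977) and H2AFY2 (0.00925) lay below HIST1H1C and HIST1H2BK. H3F3A, which encodes H3.3, gave 13715 to 20489 reads per library. The linker histone gene H1F0 was listed at 0 reads in all 12 libraries.

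Of the 76 members, 15 had no read in any library, 29 had at most 9 reads in each library, and 18 reached 10 reads in some library but did not pass the filter on low counts. The 15 without a read included the 3 HIST3 genes, the testis histone genes HIST1H1T, HIST1H2BA and HIST1H2AA, and HIST1H2AD, HIST1H3I, HIST1H4F, HIST1H4G and HIST1H4L. The 3 HIST3 genes are entered a second time in the count table under a copy suffix, also at 0 reads. For 13 members under 50% of the 50-base windows of the transcript were found in no other member's transcript. Their counts are uncertain, and HIST1H2AJ (33.7%) and HIST1H2AM (32.2%) are the ones among them that were tested.

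The filter passed 14 members: 1 H1, 5 H2A, 5 H2B, 2 H3 and 1 H4 gene. A gene passes where about 10 reads are reached in at least 3 libraries, so a gene that is high with WA only can pass through those libraries. HIST1H2BJ, HIST1H4C, HIST1H3E and HIST1H3G reached 10 reads in treated libraries alone, and HIST1H2AE, HIST1H2AJ and HIST1H2AM in fewer than 3 untreated ones. These 7 members passed with the help of the treated libraries, where they had to be high, and no count or median that includes them is support for a rise of the group. The other 7 reached 10 reads in at least 4 untreated libraries. Of the members tested, 9 end at the loop in all their transcripts and 5 have an extended transcript, the only one annotated for HIST2H2BE.

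The first question was what WA did to these genes in MM1R. Of the 14 members tested, 4 were called at an adjusted p under 0.05, and all 4 rose. They were HIST1H1C, HIST1H2AC, HIST1H2BD and HIST1H2BJ. Among all 14085 genes tested, 7.55% were called higher. The median log2 fold change of the 14 was 1.62, against 0.01 over all genes tested, and single values ran from 0.42 to 4.93. Over the 7 members that the untreated libraries carry, the median was 1.35 (0.42 to 3.07) and 3 were called. With passage as a block, 8 of the 14 were called higher, against 14.7% of all genes: HIST2H2BE, HIST1H4C, HIST1H2BK and HIST1H2AM joined the 4. DESeq2 called 7, against 8.9% of all genes, the 4 with HIST2H2BE, HIST1H4C and HIST1H2BK. CPM did not overlap between groups and was higher with WA in 8 of the 14, against 17.3% of all genes tested. HIST1H4C and HIST1H2BJ are among these 8 and passed the filter through treated libraries alone, so the count is a description.

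HIST1H1C, which encodes the linker histone H1.2, had 197, 137 and 122 reads in untreated MM1R (passages 4, 6 and 7) and 1167, 358 and 431 with WA. All treated libraries were above all untreated ones, and passage 4 was the highest in both groups. Mean CPM was 8.30 ± 1.71 and 36.2 ± 22.8 (SD, n = 3). This is a log2 fold change of 2.12 with a standard error of 0.33 (adjusted p = 0.0011), and the gene was higher with WA in 3 of 3 passages. Values after ± beside a log2 fold change are standard errors from here on. Over the 20 alternatives planned it stayed called, with log2 fold changes of 1.48 (without treated passage 4) to 2.44.

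HIST1H2AC encodes a core histone H2A. It had 40, 8 and 7 reads in untreated MM1R and 290, 83 and 81 with WA. The groups did not overlap, and passage 4 was again the highest in each. Its log2 fold change was 3.07 ± 0.60 (adjusted p = 0.00439). It was called under all 19 alternatives that tested it, but passage 4 moved its size: the log2 fold change was 4.28 without untreated and 2.27 without treated passage 4. Its exons overlap another annotated gene model on the same strand, whose reads could not be told apart.

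HIST1H2BD, an H2B gene, had 12, 13 and 8 reads in untreated MM1R and 33, 23 and 26 with WA. The groups did not overlap. Its log2 fold change was 1.35 ± 0.38 (adjusted p = 0.0285). The call was lost without any 1 of 5 MM1R libraries (untreated passage 4, 6 or 7, treated passage 4 or 7), where the log2 fold change lay within its range of 1.20 to 1.48 over all alternatives.

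HIST1H2BJ, another H2B gene, had 0, 1 and 0 reads in untreated MM1R and 18, 5 and 17 with WA. It was called (adjusted p = 0.00648), but it passed the filter through treated libraries alone, having at most 5 reads in any untreated one, and the call is given as a description. Since untreated libraries lie at or under a floor of 3 reads per library, the mean CPM with WA was set against that floor. It was 4.59 times the floor, with no allowance for the spread of the 18, 5 and 17 reads. The fitted log2 value of 4.93 depends on the small count that the fit adds, and became 6.81 without untreated passage 6, which held the 1 read.

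Members that were not called in MM1R lay close to the threshold in part. HIST1H4C, an H4 gene, had 4, 4 and 4 reads untreated and 5, 12 and 44 with WA (log2 fold change 2.40 ± 0.76, adjusted p = 0.0502), a difference carried largely by passage 7. HIST2H2BE, an H2B gene with an extended transcript, had 24, 9 and 8 reads and then 55, 23 and 52 (1.72 ± 0.55, adjusted p = 0.0541). HIST1H2BK, the most abundant H2B gene here, had 133, 80 and 47 and then 258, 124 and 163 (1.12 ± 0.38, adjusted p = 0.0620). Treated reads of HIST1H2BK overlapped the untreated ones of passage 4, while CPM did not. With passage as a block, adjusted p was 0.0165 for HIST1H4C, 0.00715 for HIST2H2BE, 0.00141 for HIST1H2BK and 0.0153 for HIST1H2AM.

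**Figure D2:**
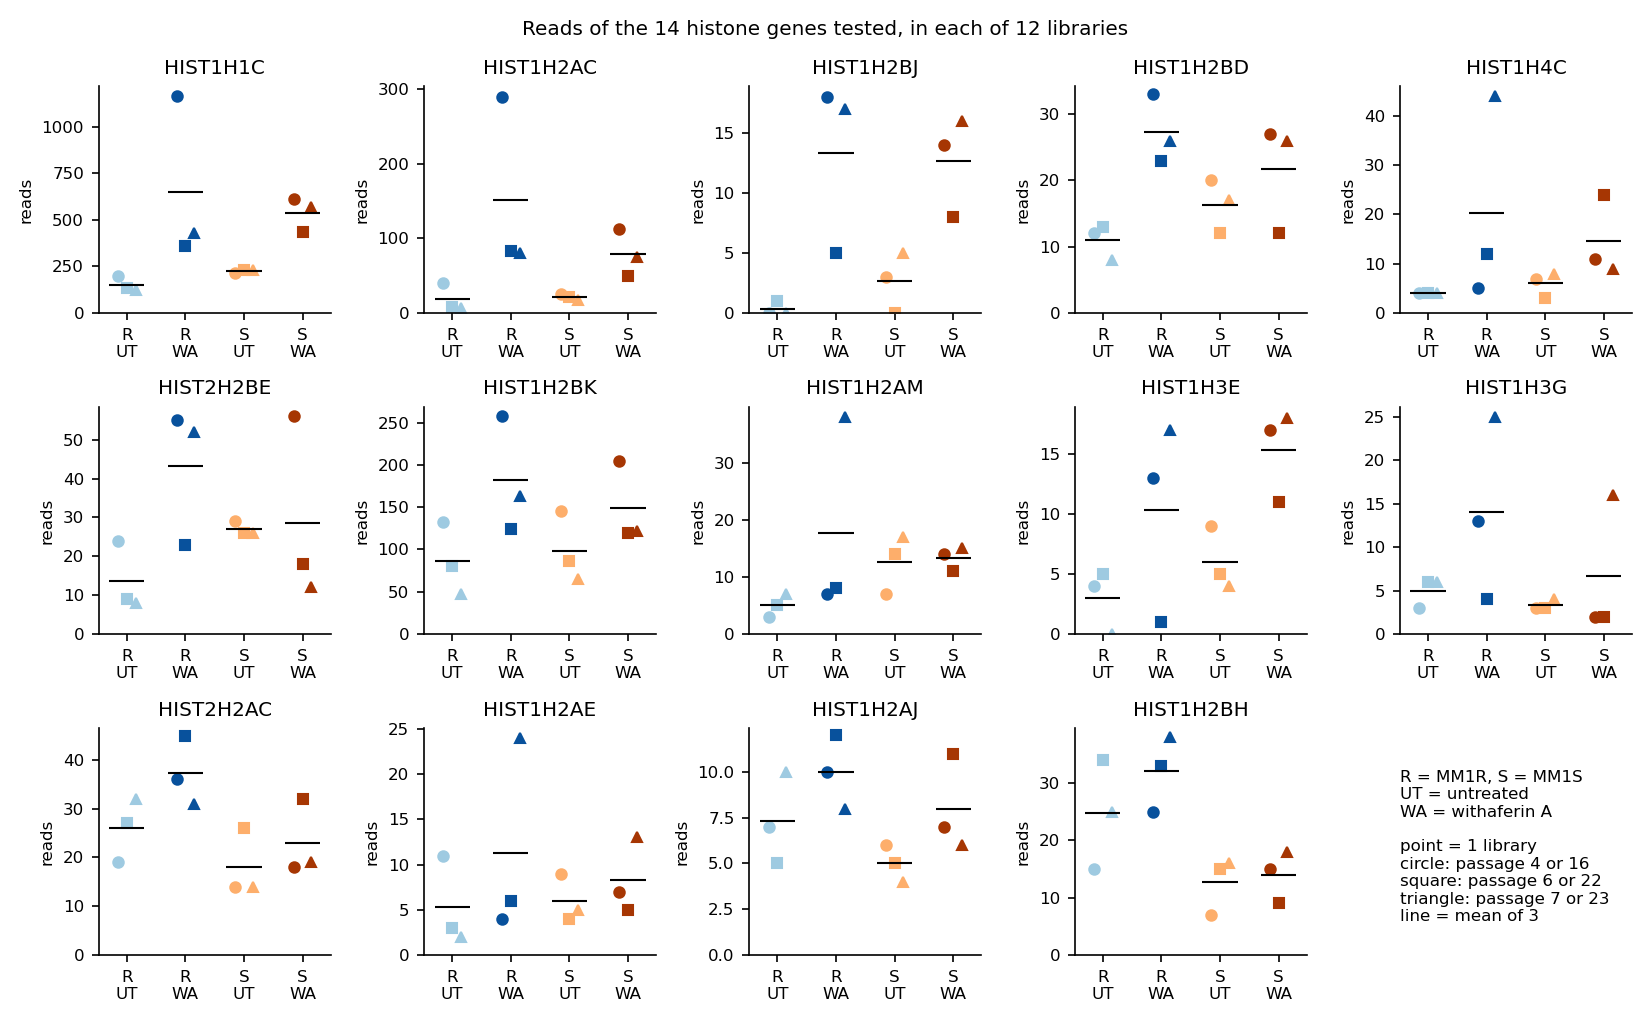
Each panel plots the reads (y axis, from 0) of 1 of the 14 histone genes tested in the 12 libraries, grouped by line (R, MM1R; S, MM1S) and treatment (UT, WA), with a point per library, its shape giving the passage, and a line at the mean of 3. HIST1H1C and HIST1H2AC are separated by WA in both lines, while HIST1H4C and HIST1H2AM have a single high point, 44 and 38 reads, in treated MM1R of passage 7.

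The same question in MM1S gave 2 calls of 14, both higher, HIST1H1C and HIST1H2AC, where 6.25% of all genes tested were called higher. The median log2 fold change was 0.70, against 0.01 over all genes, with single values from 0.16 to 2.28. Over the 7 members that the untreated libraries carry, the median was 0.49 (0.17 to 1.97), and both calls were among them. With passage as a block 4 were called higher, against 12.5% of all genes, the additions being HIST1H2BJ and HIST1H2BK. DESeq2 called the same 2, against 7.39%, and with no filter 3 of 61 members were called, against 3.97%. CPM did not overlap and was higher with WA in 6 of the 14, against 16.4% of all genes tested. Of these 6, HIST1H1C and HIST1H2AC alone are carried by the untreated libraries, so the count is a description.

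HIST1H1C had 214, 230 and 231 reads in untreated MM1S (passages 16, 22 and 23) and 613, 433 and 569 with WA. The untreated libraries lay close together and all treated ones lay above them. Mean CPM was 11.5 ± 0.397 and 29.1 ± 5.32 (SD, n = 3), a log2 fold change of 1.34 ± 0.32 (adjusted p = 0.0186). HIST1H2AC had 25, 22 and 17 reads and then 113, 50 and 75, with no overlap, and its log2 fold change was 1.97 ± 0.59 (adjusted p = 0.0491). Both calls were lost without untreated passage 22 or 23 or treated passage 16 or 23. HIST1H2AC also lost its call without untreated passage 16, without untreated or treated MM1R of passage 6, and with total counts in place of TMM factors. The log2 fold changes stayed between 1.24 and 1.48 for HIST1H1C and between 1.63 and 2.22 for HIST1H2AC over the alternatives.

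HIST1H2BJ had 3, 0 and 5 reads in untreated MM1S and 14, 8 and 16 with WA (2.28 ± 0.73, adjusted p = 0.0634, and 0.0157 with passage as a block). HIST1H2BK had 145, 86 and 65 reads and then 205, 119 and 122 (0.67 ± 0.37, adjusted p = 0.296, and 0.0246 with the block). It was higher with WA in each passage, and its groups overlapped. HIST2H2BE had 29, 26 and 26 reads untreated and 56, 18 and 12 with WA, so that it was above the untreated level in passage 16 and below it in the others (0.17 ± 0.53, adjusted p = 0.894).

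**Figure D3:**
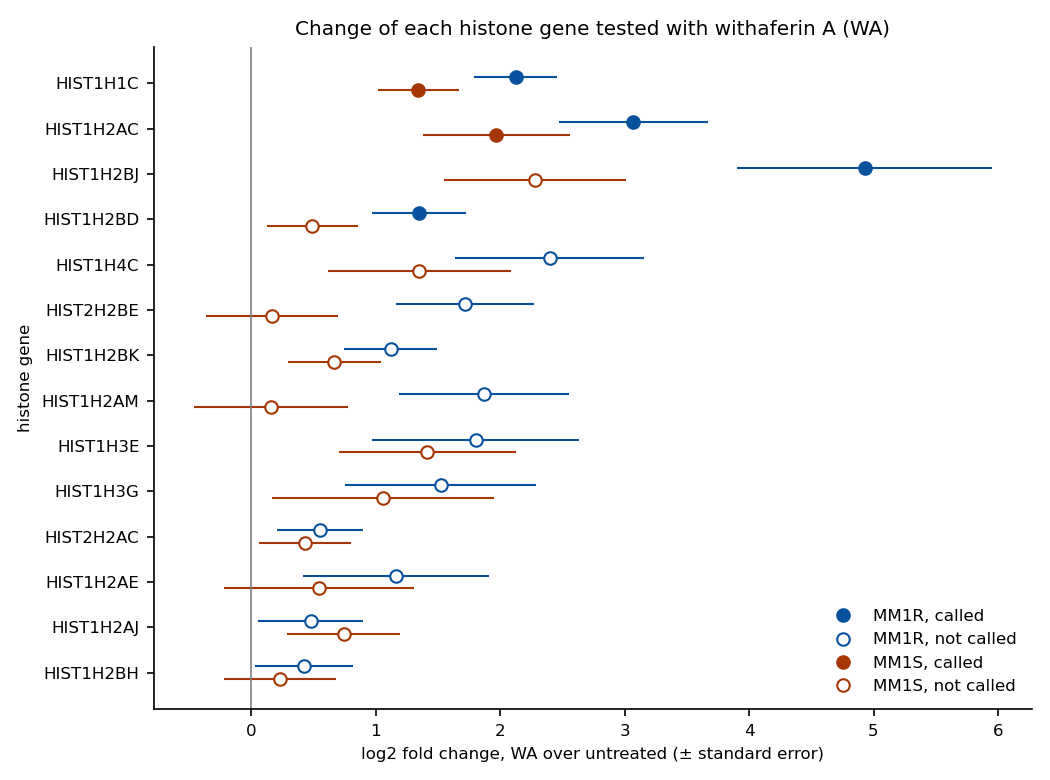
Points give the log2 fold change of WA over untreated (x axis) with its standard error for each of the 14 histone genes tested (y axis), in MM1R (blue) and MM1S (brown), filled where the adjusted p was under 0.05. The MM1R value is the larger in 13 of the 14 genes, and the MM1R value of HIST1H2BJ rests on 1 untreated read.

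Whether WA acted differently in the lines was tested directly. No member was called for a difference between lines in the WA effect, and none of the 14085 genes was (0%). At an unadjusted p under 0.05, 97 of all genes and 0 of the 14 members were found, and DESeq2 called 1 gene, not a member. The smallest unadjusted p among the members in edgeR was that of HIST2H2BE (0.0631), with a difference of 1.55 ± 0.77 in log2 fold change, MM1R minus MM1S. HIST1H2AM (1.71 ± 0.93) and HIST1H2BJ (2.65 ± 1.45) followed, and the adjusted p was 1 for all 14. The median of the difference was 0.70, and standard errors of single members were 0.46 to 1.45. With passage as a block, again no gene was called, and the adjusted p was 1 for every member. In that fit 4 members and 286 of all genes had an unadjusted p under 0.05. They were HIST1H2AC with a difference of 1.21 ± 0.37, HIST1H1C with 0.67 ± 0.26, HIST2H2BE with 1.69 ± 0.56 and HIST1H2AM with 1.57 ± 0.63, each larger in MM1R.

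Untreated MM1R and MM1S were compared at an adjusted p under 0.01 and a log2 fold change of at least 1 in either direction. None of the 14 members was called, while 2.97% of all genes were. DESeq2 called none. In edgeR 1 member had an unadjusted p under 0.05, against 3649 of all 14085 genes tested, which is the larger share. This was HIST1H2BH, an H2B gene, with 15, 34 and 25 reads in MM1R and 7, 15 and 16 in MM1S (1.07 ± 0.43, adjusted p = 0.125), whose groups overlapped. HIST1H1C had 122 to 197 reads in MM1R and 214 to 231 in MM1S, which did not overlap (−0.47 ± 0.33, adjusted p = 0.408). The median of the 14 was −0.30, with 4 values above 0.

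With WA in both lines, again no member was called, against 3.04% of all genes, and DESeq2 called none. HIST1H2BH had 25, 33 and 38 reads in MM1R and 15, 9 and 18 in MM1S, with no overlap (1.26 ± 0.41, adjusted p = 0.0641). It and HIST2H2AC (0.76 ± 0.35, adjusted p = 0.171) were the 2 members with an unadjusted p under 0.05. Over all 14085 genes tested there were 3944 such genes in edgeR, which is the larger share. The median was 0.52 and 13 of 14 values were above 0.

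One library stood apart in histone reads. In treated MM1R of passage 7, the linker histone gene HIST1H1E had 44 reads, against 0 to 5 in the other 11 libraries. The H3 gene HIST1H3B had 35 against 0 to 7, the H2B gene HIST1H2BG 34 against 1 to 6, and the H4 gene HIST1H4E 22 against 0 to 4. None of these passed the filter. Of the 18 members outside the test that reached 10 reads in a library, 14 had their highest count there. The 62 members not tested summed to 423 reads in it, 91 to 149 in the other treated libraries and 49 to 74 in untreated ones.

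The same library was high in other RNAs. RN7SK, a small nuclear RNA without a poly(A) tail, had 174 reads against 6 to 37 in the other 11. RMRP, also not polyadenylated, had 15 against 0 to 5, and the 5 entries of the ribosomal RNA precursor RNA45SN had 654 against 22 to 150. MALAT1, a nuclear RNA whose end is a triple helix, had 3219 against 261 to 1043. Outside this library, the RNA45SN entries had 22 to 60 reads untreated and 52 to 150 with WA. MALAT1 had 261 to 726 untreated and 621 to 1043 with WA there. The ranges were 6 to 33 and 11 to 37 for RN7SK, and 1 to 3 and 0 to 5 for RMRP. Their part in the histone result was not tested.

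**Figure D4:**
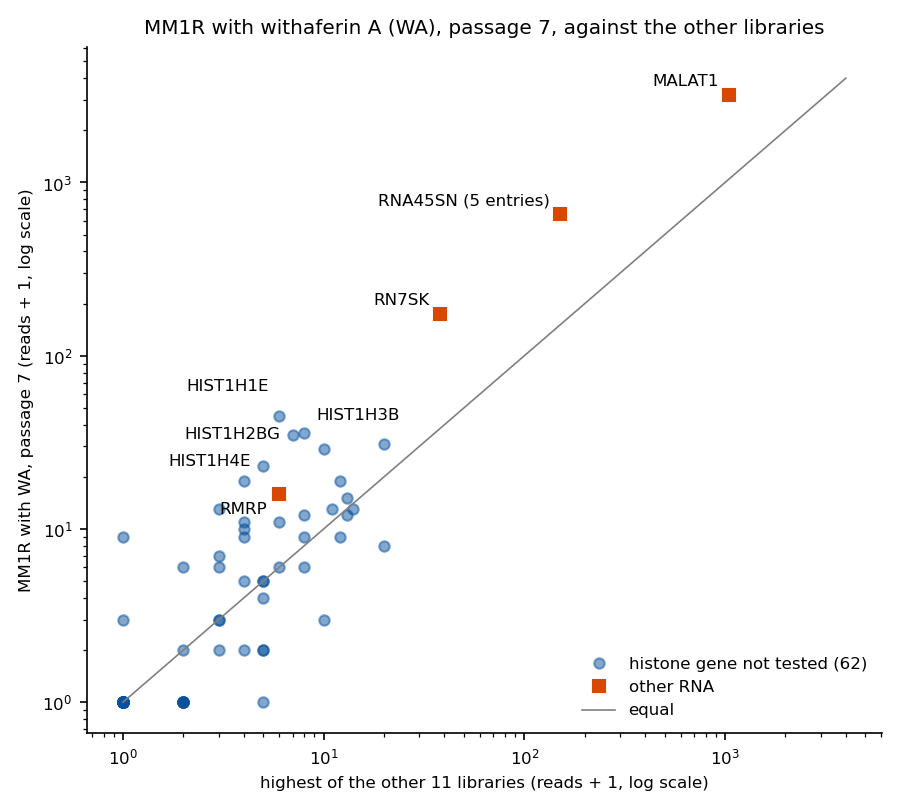
Each blue point is 1 of the 62 histone genes not tested, with its highest count among 11 libraries on the x axis and its count in treated MM1R of passage 7 on the y axis (reads + 1, log scales), and orange squares are 4 other RNAs. Points above the grey line of equality are highest in passage 7, up to 44 reads against 5 for HIST1H1E.

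Without this library, 4 of 15 members tested were called higher with WA in MM1R, against 4.64% of all genes. HIST1H1C, HIST1H2AC and HIST1H2BJ remained called, HIST1H2BD was lost (adjusted p = 0.0706) and the H3 gene HIST1H3H was added. The log2 fold change fell to 1.09 for HIST1H4C and 0.59 for HIST1H2AM. With no filter on low counts, 16 of the 61 members with a read were called higher in MM1R (4.62% of all genes), and HIST1H1E, HIST1H3B, HIST1H2BG and HIST1H4E were among them. With no filter and without treated passage 7, 6 of 59 were called (3.51% of all genes): HIST1H1C, HIST1H2AC, HIST1H2BJ, HIST1H2BK, HIST2H2BE and HIST1H3H.

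Transcript ends were set beside the levels. The 21 members with an extended transcript summed to 101, 59 and 34 reads in untreated MM1R and 479, 179 and 284 with WA. In MM1S they summed to 113, 90 and 90, and then 280, 135 and 186. The ratio of mean CPM was 5.05 in MM1R and 2.17 in MM1S, and 5.10 in MM1R without treated passage 7. Ratios without treated passage 7, here and below, kept untreated passage 7, which had the fewest reads of this class (34). HIST1H2AC gave most of the treated reads of this class in MM1R of passage 4, with 290 of 479. The other 20 had 61, 51 and 27 reads in untreated MM1R and 189, 96 and 203 with WA. Their ratio was 3.69, or 3.08 without treated passage 7, and 1.68 in MM1S.

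The 48 members that end at the loop summed to 433, 330 and 286 reads in untreated MM1R and 1596, 654 and 1090 with WA, a ratio of 3.28 (2.09 in MM1S). Leaving out HIST1H1C and HIST1H2BK, the other 46 had 103, 113 and 117 reads and then 171, 172 and 496. Their ratio was 2.66 in MM1R, 1.53 without treated passage 7, and 1.59 in MM1S. Among treated MM1R libraries, passages 4 and 6 thus had near-equal sums of these 46, and passage 7 had the highest. These ratios carry no test.

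Histone genes often lie head to head with a shared promoter, and 25 members had such a partner within 1000 bases. HIST1H2AC starts 219 bases from HIST1H2BC, which had 4, 3 and 1 reads in untreated MM1R and 10, 9 and 12 with WA, against 40, 8 and 7 and then 290, 83 and 81 for HIST1H2AC. HIST1H2BJ starts 248 bases from HIST1H2AG, an H2A gene that had 4, 4 and 2 reads and then 9, 3 and 14. HIST2H2BE starts 236 bases from HIST2H2AC, which was tested. HIST2H2AC had 19, 27 and 32 reads in untreated MM1R and 36, 45 and 31 with WA (0.55 ± 0.35, adjusted p = 0.330), where the value of HIST2H2BE was 1.72. The partners of a promoter thus had unlike read counts, but these are not set per kilobase. Exon lengths differ, with 1668 bases for HIST1H2AC and 2881 for HIST1H2BC, and 2224 for HIST2H2BE and 494 for HIST2H2AC. The difference between partners was not tested.

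By histone class, the ratio of mean summed CPM, WA over untreated, in MM1R was 4.50 for H1, 3.59 for H2A, 2.44 for H2B, 3.90 for H3 and 5.55 for H4. Without treated passage 7, and with untreated passage 7 kept, it was 4.97, 3.62, 2.16, 2.29 and 2.71. In MM1S it was 2.55, 2.20, 1.55, 1.97 and 1.79. The H3 and H4 sums thus depended on treated passage 7 in MM1R by more than 1.5 times, and H4 reads in treated MM1R were 38, 24 and 115.

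Genes that serve histone supply were examined next. Of 35 S phase genes, all tested, 13 fell and none rose with WA in MM1R, where 6.46% of all genes were called lower. The median log2 fold change was −0.42. CCNE1, the cyclin that drives entry into S phase, fell by 1.32 ± 0.27 on the log2 scale (adjusted p = 0.00597). CCNE2 fell by 1.15, the uracil glycosylase gene UNG by 1.04, UHRF1 by 0.96 and CDCA7 by 0.70. Over 20 alternatives CCNE1, UNG and UHRF1 kept these calls, while CCNE2 lost its call in 4 and CDCA7 in 5, all of which left out a single MM1R library. In MM1S 6 fell and none rose, against 4.23% of all genes, with a median of −0.34. CCNE1 fell there by 0.98, UNG by 0.90, UHRF1 by 0.67, the flap endonuclease gene FEN1 by 0.56 and the helicase subunit gene MCM4 by 0.51. UNG kept its call under all 20 alternatives, while MCM4 lost it in 10, UHRF1 in 9, CCNE1 in 4 and FEN1 in 2. Under the block 27 fell and 1 rose in MM1R, where 14.4% of all genes fell, and 23 fell and 1 rose in MM1S, where 11.7% fell. Without treated MM1R of passage 7, 3 fell in MM1R and 4 in MM1S. In that fit 1074 of 14402 genes were called in either direction in MM1R, 668 of them higher, and 1508 in MM1S. With WA, MM1R was below MM1S in CCNE2 (−1.61 ± 0.29, adjusted p = 0.00291), the 1 S phase gene called between lines.

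Among 18 of 19 genes for histone transcription and 3' end processing, 3 rose and 1 fell with WA in MM1R, where 7.55% of all genes rose and 6.46% fell. Without treated MM1R of passage 7, 1 rose and 0 fell, where 4.64% of all genes rose. ZNF473, a zinc finger protein of the U7 snRNP complex that cleaves histone pre-mRNA, rose by 1.18 ± 0.18 (adjusted p = 0.00107) in MM1R and by 1.14 ± 0.18 (adjusted p = 0.00152) in MM1S. SLBP, the stem-loop binding protein, rose by 0.47 ± 0.13 (adjusted p = 0.0286) and 0.54 ± 0.13 (adjusted p = 0.0177). POU2F1, which binds the octamer, rose by 0.45 (adjusted p = 0.0361), and the cleavage factor gene CPSF2 fell by 0.39 (adjusted p = 0.0473), in MM1R. In MM1S, ZNF473 and SLBP were the 2 calls. The median of the list was −0.13 in MM1R and −0.03 in MM1S. Under the block, 3 rose and 3 fell in MM1R (14.7% and 14.4% of all genes), and 3 rose and 2 fell in MM1S (12.5% and 11.7%). ZNF473 kept its call under all 20 alternatives in both lines, while SLBP in MM1R lost it under 5, POU2F1 under 9 and CPSF2 under 12.

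Of 17 histone chaperone genes tested of 19, ASF1A, which hands H3 and H4 to assembly factors, rose by 0.85 ± 0.19 in MM1R (adjusted p = 0.00962) and by 0.81 ± 0.19 in MM1S (adjusted p = 0.0162). NASP, which stores soluble H3 and H4, fell by 0.65 in MM1R (adjusted p = 0.0214), as did HIRA, a chaperone of H3.3, by 0.40 (adjusted p = 0.0495). The shares over all genes in MM1R were 7.55% higher and 6.46% lower. NASP lost its call in 4 and HIRA in 10 of 20 alternatives, both among others without treated MM1R of passage 7. ASF1A lost its call in 1 alternative in MM1R and 3 in MM1S. ASF1B and IPO4 were listed at 0 in all libraries. The block gave 9 that fell and 1 that rose in MM1R, and 7 and 1 in MM1S, where the block called 14.4% and 11.7% of all genes lower.

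Of 10 replacement histone genes tested of 12, none was called with WA in either line. The shares over all genes were 7.55% higher and 6.46% lower in MM1R, and 6.25% and 4.23% in MM1S. Medians of the 10 replacement genes were 0.00 in MM1R and 0.04 in MM1S. Under the block, H2AFJ, H2AFX and H3F3B were called higher in MM1R (0.55, 0.38 and 0.37) and CENPA, the centromeric H3, lower (−0.32), and none was called in MM1S. The block called 14.7% of all genes higher and 14.4% lower in MM1R, and 12.5% and 11.7% in MM1S. No gene of the histone processing, chaperone or replacement lists was called between the lines, and no gene of the 4 lists was called for a difference in the WA effect.

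**Figure D5:**
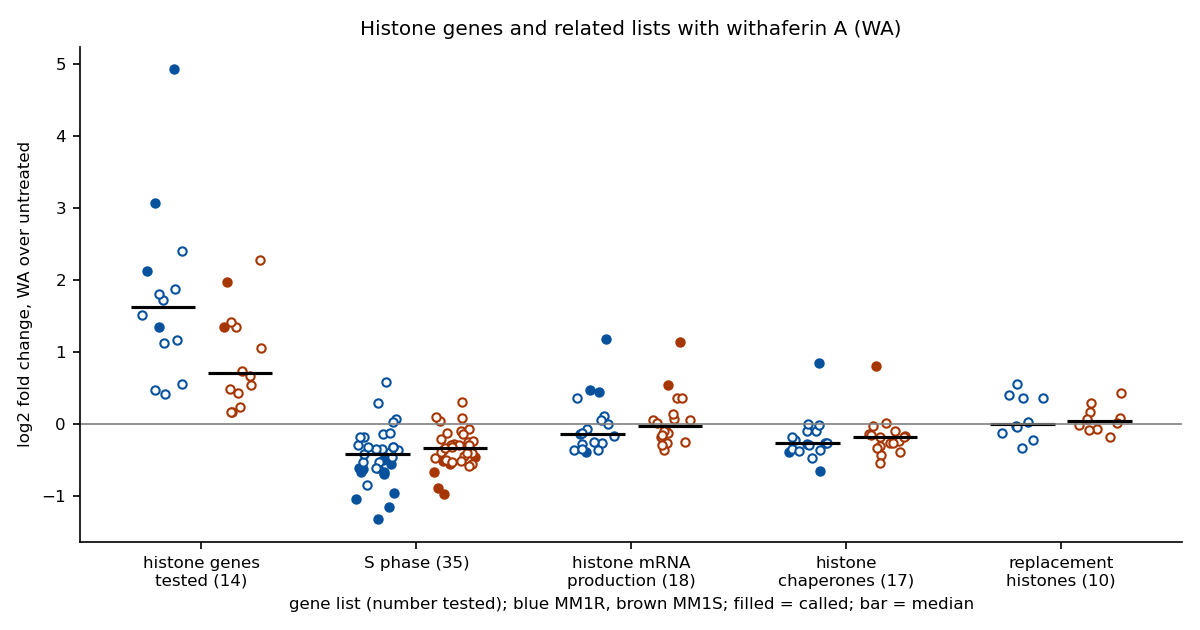
Each point is the log2 fold change of 1 gene, WA over untreated (y axis), for the 14 histone genes tested and 4 related lists (x axis), in MM1R (blue) and MM1S (brown), filled where called, with a bar at the median. The medians of the histone genes are 1.62 and 0.70, and those of the S phase list −0.42 and −0.34. Over the 7 histone genes that the untreated libraries carry, the medians are 1.35 and 0.49, and the others passed the filter with the help of treated libraries.

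The identity of the cells was checked on marker lists. The 10 plasma cell genes summed to 20430 to 45251 CPM, against 3.99 to 11.9 for the 5 T cell genes, 0.117 to 1.35 for the 5 myeloid genes and 0.310 to 1.55 for the 4 epithelial genes. CD3G and FCGR3A were at 0. The 4 fibroblast genes summed to 0.497 to 2.34 CPM untreated and 2.30 to 17.9 with WA, and so moved with the treatment. Of these COL1A2 and COL3A1 were at 0, and COL1A1 had 9 to 45 reads untreated and 43 to 294 with WA. Its part in the histone result was not tested.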

How the data were processed

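Total RNA of 12 cultures was sequenced at BGI. The authors checked reads with FastQC (0.11.5), aligned them with STAR (2.7.3a) to hg19 and used DESeq2, per the labels and the study's methods. The deposited counts, whole reads per gene symbol, were used. The authors' normalized table was not used. Annotation and strand setting are not given in the sources used here.

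Members were the entries with a histone cluster symbol. Members, gene lists and tests were chosen with earlier results of these data known. Counts of all libraries were fitted once with edgeR (4.0.16, R 4.3.3) after filterByExpr (minimum count 10), with TMM factors and the quasi-likelihood test. P-values were adjusted by Benjamini and Hochberg over the 14085 genes tested. WA effects and their difference were called at 0.05, and lines at 0.01 with a log2 fold change of 1. The functions were tested on simulated data. Named were up to 12 called members per comparison with 1 direction in every passage, the 6 highest per kilobase, the 3 with the smallest p for the difference between lines, and up to 5 called genes per list, and other names were chosen after their values were seen. Levels per kilobase used the union of all GENCODE exons on GRCh37.

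Same-passage libraries deviated together in all 6 pairs (correlations of 0.221 to 0.744). Passage was taken as the pairing where changes are given by passage and in the alternative with passage as a block. The main fit, which gave the calls, used group means without passage. For MM1S passage 22 the correlation with another passage was higher (0.347 against 0.262). Libraries of a group differed beyond counting noise (chi-square over its degrees of freedom, 8.79 to 49.0). Nothing says how the cultures of a passage were split, so p-values of the main fit measure the spread between passages. With passage as a block, p-values measure the spread of the change with WA between passages instead. Alternatives were DESeq2 (1.42.0), its size factors, total counts, other filters, only the libraries compared, passage as a block, copy-suffix entries added, and each library left out.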

Additional observations from a re-analysis of the deposited data

How the results depend on the processing

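The number of members called with WA in MM1R was 4. It was 7 with DESeq2, 16 with no filter on low counts and 8 with passage as a block. It was 1 where a minimum of 10 reads was set for all libraries (3 members tested). All genes called, in either direction, were 1973 in the main fit. In these fits they were 2483 of 14085, 2344 of 26497, 4094 of 14085 and 1883 of 11805, in that order. With single libraries left out, the members called ranged from 3 to 9 and all genes called from 950 to 2396. Leaving out a library also let up to 21 members pass the filter. In MM1S it was 2. A minimum of 10 reads in all libraries gave 1, total counts gave 1, passage as a block gave 4, and leaving out single libraries gave 0 to 2. All genes called in MM1S were 1476 in the main fit and 1455, 1577 and 3399 in these fits in turn. With single libraries left out they were 726 to 1621, and 726 to 930 in the fits where 0 members were called. Between treated lines, the count of 0 became 1 with no filter, with or without treated MM1R of passage 7, an alternative chosen after seeing the data. All genes called there were 819 of 26497 with this library and 759 of 26151 without it. The median log2 fold change in MM1S was 0.70, was 0.48 with only the libraries compared, and ranged from 0.71 to 1.00 with single libraries left out. Between untreated lines it was −0.30, and it was −0.10 with that minimum, 0.00 with no filter, −0.13 with only the libraries compared and −0.50 to 0.16 with single libraries left out. The cause of these shifts was not tested. The sign of members not called turned for HIST1H2AE in MM1R without treated passage 7 (−0.054, to 2.16 without untreated passage 4) and, in MM1S, for HIST2H2BE without treated passage 16 (−0.76, to 0.53), HIST1H3G without treated passage 23 (−0.63, to 1.49), HIST1H2AM without untreated passage 16 (−0.12, to 0.40) and HIST1H2BH without untreated passage 16 (−0.053, to 0.47) or treated passage 23 (0.00). No passage block was made between lines, which share no passage number. Few reads limit the members, of which HIST1H1C, HIST1H2BK and HIST2H2AC alone had at least 10 in every library.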
